A study of Mus musculus with 18 samples.

Results

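The membrane of the neuronal primary cilium was represented by 4 genes in the brain RNA sequencing data: the receptor genes Sstr3, Mchr1 and Htr6 and the adenylyl cyclase gene Adcy3. They were chosen by name, with earlier results of these data known. All 4 were found by their Ensembl identifiers among the 38561 genes counted in every library, and all 4 passed the filter on low counts (10 or more counts in any library) that left 17545 genes for the tests. The libraries came from adult mice of the strain C57 Bl6J, either wild type (WT) or homozygous for a gene-trap insertion in Pcm1 (Pcm1-/-, labelled PCM1 KO). The line was made from gene-trap embryonic stem cells and was backcrossed to that strain for at least 3 generations. Pcm1 encodes a scaffold protein of the centriolar satellites, the granules that carry proteins to the base of the cilium. Frontal cortex, striatum and hippocampus of 3 WT and 3 Pcm1-/- littermates gave 18 libraries, 3 for each genotype in each region. The insertion was carried by every cell of the animal and not by neurons alone, both genotypes included males and females, and each library was made from a piece of tissue that held many cell types.

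A primary cilium is a single, non-motile projection of the cell surface that most neurons of the adult forebrain carry. Its membrane holds a small set of G protein-coupled receptors, and the cyclic AMP that these receptors raise or lower is made there mainly by the enzyme encoded by Adcy3. SSTR3 and MCHR1 couple mainly to inhibitory G proteins and HTR6 to stimulatory ones. Antibodies to these proteins are the usual markers of neuronal cilia. The libraries measured messenger RNA, and they hold no measure of the place or amount of the proteins.

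Depth was similar in all groups, with 24950537 to 33405081 reads counted on genes in a library. Pcm1 itself measured 120 to 172 CPM (counts scaled to a common library total with edgeR's TMM factors over all 18 libraries) in WT libraries and 11.8 to 17.6 CPM in Pcm1-/- libraries, so no library went against its label. Summed markers of striatal neurons reached 4764 to 5796 CPM in the striatum and at most 207 CPM elsewhere, markers of the frontal cortex 713 to 830 CPM in that region and at most 214 CPM elsewhere, and markers of the hippocampus 783 to 1023 CPM in that region and at most 630 CPM elsewhere. The WT striatum library numbered 3 also held 5963 CPM of choroid plexus markers, against 30.3 to 164 CPM in the other striatum libraries, and in the hippocampus this sum ranged from 2135 to 6254 CPM in WT and from 220 to 4135 CPM in mutants. Sequencing lane 5 held all WT striatum libraries and lanes 3 and 4 the mutant ones. In that region a lane difference cannot be told apart from a genotype difference.

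Sstr3 (ENSMUSG00000044933) lies on chromosome 15 of GRCm38 from 78537008 to 78544685 on the minus strand, and Mchr1 (ENSMUSG00000050164) on the same chromosome from 81235499 to 81238964 on the plus strand. Htr6 (ENSMUSG00000028747) lies on chromosome 4 from 139061108 to 139075570 on the minus strand. Adcy3 (ENSMUSG00000020654) lies on chromosome 12 from 4133103 to 4213525 on the plus strand. Exons of Adcy3 share 1380 bases, 22.1% of its exon length, with the exons of Cenpo on the opposite strand. The strand setting of the counting was not stated, so reads in these bases may have been left uncounted or given to either gene. Cenpo measured 2.20 to 3.54 CPM over the 18 libraries, far under Adcy3 in each of them.

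The 250 bases before the RefSeq start sites of the 4 genes (7 sites, since Sstr3, Htr6 and Adcy3 have a pair each) were searched on both strands for 4 short motifs that do not overlap each other in these windows. The core of the site of the RFX factors, which are known to switch on genes of cilia (GTTGCC), was in 0 of the 7 windows and in 10.4% of all 32851 RefSeq windows of that length. The E box (CACGTG) was in 2 of 7 and in 6.02% of all, the GC box (GGGCGG) in 2 of 7 and in 32.7%, and the core of the cyclic AMP response element (TGACG) in 1 of 7 and in 17.8%. The window of Mchr1 held an E box and none of the others, the upstream window of Sstr3 an E box and the cyclic AMP response core, the upstream window of Htr6 3 GC boxes, a pair of which share a base, and the upstream window of Adcy3 1 GC box. The windows of Mchr1 and Htr6 are shown because both receptor genes were highest in the striatum while their windows held different motifs. They are given 5′ to 3′ on the strand of the gene, with motif matches on either strand in capitals (Mchr1 at chr15:81235249-81235498, plus strand, and Htr6 at chr4:139075571-139075820, minus strand, GRCm38). A match is a description of the letters and was not tested for binding.
Mchr1: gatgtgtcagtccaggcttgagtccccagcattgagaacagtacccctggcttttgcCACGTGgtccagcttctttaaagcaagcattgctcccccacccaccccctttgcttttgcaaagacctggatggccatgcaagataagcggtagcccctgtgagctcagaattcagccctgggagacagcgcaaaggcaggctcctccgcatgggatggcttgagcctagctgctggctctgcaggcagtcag
Htr6: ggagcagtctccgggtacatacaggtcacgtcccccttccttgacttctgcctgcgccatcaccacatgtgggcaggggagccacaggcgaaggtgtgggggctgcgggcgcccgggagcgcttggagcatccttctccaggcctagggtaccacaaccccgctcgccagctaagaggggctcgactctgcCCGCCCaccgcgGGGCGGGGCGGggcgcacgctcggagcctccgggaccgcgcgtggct

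The first comparison asked how the 4 genes were expressed over the 3 regions in WT brain. Sstr3, a receptor of somatostatin, was a gene of the frontal cortex and hippocampus, and Mchr1, the receptor of melanin-concentrating hormone, Htr6 and Adcy3 were highest in the striatum. The WT libraries of the frontal cortex measured 34.8, 36.6 and 35.4 CPM of Sstr3, those of the hippocampus 31.9, 37.5 and 31.3 CPM, and those of the striatum 2.21, 2.16 and 2.34 CPM. The striatal values, from 60 to 67 reads a library, were far below all others. On the log2 scale striatum was lower than frontal cortex by 3.99 (log2 difference -3.99, 95% interval -4.19 to -3.79, adjusted p = 5.15e-08, edgeR), which leaves 6.29% of the frontal cortex level. Hippocampus and frontal cortex were not told apart for Sstr3 (log2 difference -0.09, interval -0.25 to 0.07, adjusted p = 0.337).

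Mchr1 had the opposite order. Its 3 WT libraries measured 58.3, 51.0 and 43.2 CPM in the striatum, 17.6, 19.0 and 18.1 CPM in the frontal cortex and 14.8, 19.5 and 14.6 CPM in the hippocampus. Striatal values did not overlap with the others and were 2.79 times those of the frontal cortex (interval 2.24 to 3.48, adjusted p = 4.66e-05) and 3.14 times those of the hippocampus (interval 2.51 to 3.93, adjusted p = 3.22e-05). Htr6, a receptor of serotonin, was the least abundant of the receptors in CPM outside the striatum, with 6.34, 5.56 and 6.01 CPM in WT frontal cortex, 9.37, 8.97 and 8.69 CPM in striatum and 4.31, 6.33 and 4.84 CPM in hippocampus. Its striatal level was 1.51 times that of the frontal cortex (interval 1.19 to 1.92, adjusted p = 0.0109) and 1.76 times that of the hippocampus (interval 1.38 to 2.24, adjusted p = 0.00316). Neither call of Htr6 held without the animal of WT replicate 3 (adjusted p = 0.0769 and 0.0555; animals are numbered as in the frontal cortex).

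Adcy3, whose product turns the signals of these receptors into cyclic AMP, was graded over all 3 regions. WT libraries measured 77.4, 73.2 and 60.0 CPM in the striatum, 49.9, 43.0 and 48.6 CPM in the frontal cortex and 33.4, 41.1 and 38.1 CPM in the hippocampus, with no overlap between any pair of regions. The striatum was 1.49 times the frontal cortex (interval 1.25 to 1.77, adjusted p = 0.00247), and the hippocampus was 0.796 times the frontal cortex (interval 0.670 to 0.947, adjusted p = 0.0449). The latter call was lost when the animal of WT replicate 1 or of WT replicate 3 was left out (adjusted p = 0.312 and 0.203), or when the animal was not used as a block (0.0501).

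**Figure D1:**
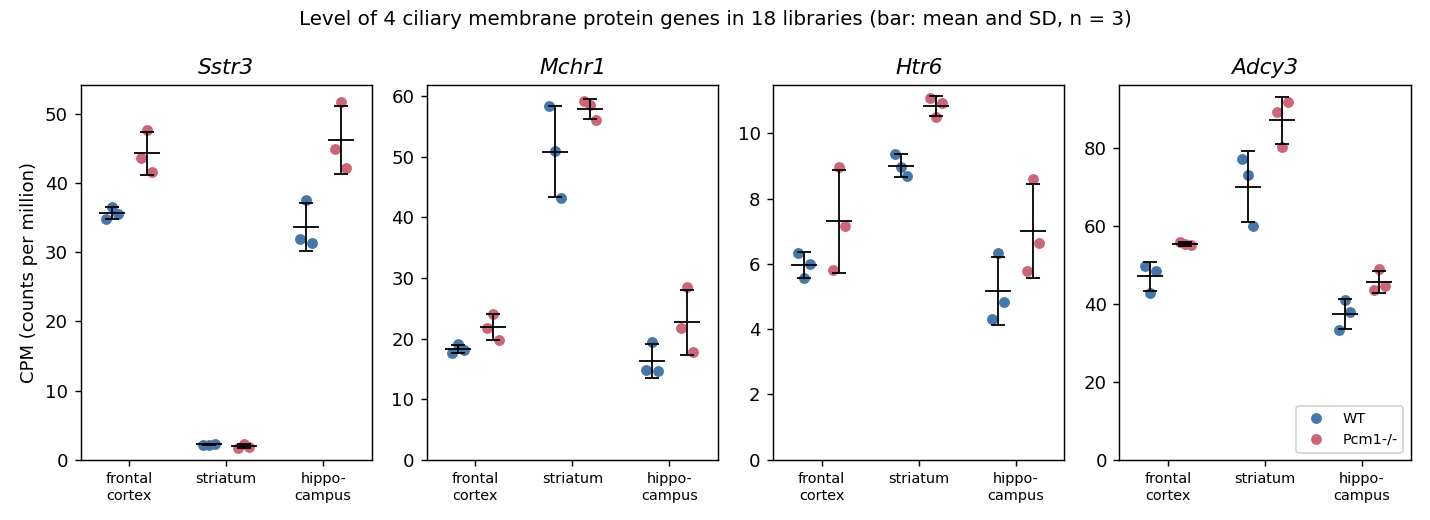
CPM of the 4 genes in each of the 18 libraries, by region, with points for libraries and bars for the mean and SD of 3 (WT blue, Pcm1-/- red). Sstr3 was near 2 CPM in the striatum and above 31 CPM elsewhere, Mchr1 and Adcy3 were highest in the striatum, and the mutant points of Adcy3 lay above all WT points in each region.

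In counts of calls over WT regions, 4 of 4 genes passed between striatum and frontal cortex, where 48.1% of all genes tested did. Between striatum and hippocampus 4 of 4 passed, against 35.1% of all genes, and between hippocampus and frontal cortex 1 of 4, against 37% of all genes. The Pcm1-/- libraries, which share no animal with the WT ones, gave the same counts: 4 of 4 between striatum and frontal cortex (56.4% of all genes), 4 of 4 between striatum and hippocampus (47.2%) and 1 of 4 between hippocampus and frontal cortex (43.9%). The mutant striatum differed from the mutant frontal cortex by -4.50 for Sstr3, 1.42 for Mchr1, 0.59 for Htr6 and 0.66 for Adcy3 on the log2 scale (adjusted p from 2.14e-09 to 0.00463, edgeR). Without the animal of Pcm1-/- replicate 1, Htr6 no longer passed there (adjusted p = 0.0572). Adcy3 in mutant hippocampus was 0.820 times its frontal cortex level (interval 0.735 to 0.915, adjusted p = 0.00928), and did not pass without the animal of Pcm1-/- replicate 1 or replicate 3 (adjusted p = 0.105 and 0.0739).

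**Figure D2:**
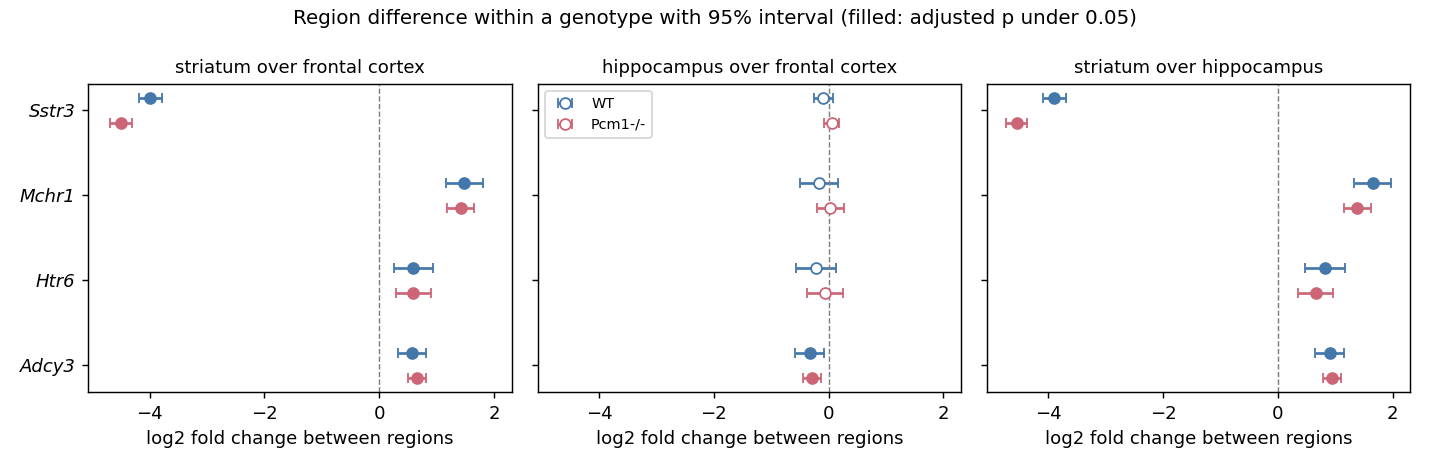
Log2 difference between regions for each gene with its 95% interval, WT in blue and Pcm1-/- in red, filled where the adjusted p was under 0.05. Sstr3 sits between -3.90 and -4.55 in both comparisons with the striatum and the other 3 genes lie to the right of 0 there, while between hippocampus and frontal cortex only Adcy3 is filled, at -0.33 in WT and -0.29 in mutants.

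The regions also differed in the neurons they held. Markers of excitatory neurons (Slc17a7, Slc17a6, Neurod6) summed to 16.8 to 71.1 CPM in WT striatum, against 2033 to 2105 CPM in WT frontal cortex and 1665 to 2125 CPM in WT hippocampus. Markers of inhibitory neurons (Gad1, Gad2, Slc32a1) summed to 1526 to 1629 CPM in WT striatum and to 479 to 692 CPM in the other WT regions. In bulk tissue, fewer cells that express a gene and less RNA of it in each cell cannot be told apart, and the part of these cell types in the levels of the 4 genes was not tested.

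Divided by exon length, levels can be set side by side between genes. Per kilobase of exon, WT frontal cortex gave 8.34 ± 0.321 CPM for Mchr1, 8.24 ± 0.204 for Sstr3, 7.55 ± 0.589 for Adcy3 and 2.55 ± 0.168 for Htr6 (SD, n = 3). Only the libraries of Mchr1 and Sstr3 overlapped in this order, and dividing by the longest transcript put Adcy3 first there. In WT hippocampus Sstr3 (7.77 ± 0.794), Mchr1 (7.44 ± 1.28) and Adcy3 (6.01 ± 0.616) came before Htr6 (2.20 ± 0.447), with overlap within the first pair. The WT striatum spread the 4 genes widest, with 23.2 ± 3.45 for Mchr1, 11.2 ± 1.45 for Adcy3, 3.85 ± 0.146 for Htr6 and 0.517 ± 0.0214 for Sstr3, and no neighbours in that order overlapped. Among 17331 genes with a length, Mchr1 stood at percentile 89.5 by mean CPM per kilobase in WT striatum and Sstr3 at percentile 22.6, against 70.9 and 70.7 in WT frontal cortex.

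The second comparison asked if loss of Pcm1 went with other levels of these genes. In the frontal cortex, Sstr3 measured 43.6, 47.6 and 41.5 CPM in Pcm1-/- libraries, all above the 34.8 to 36.6 CPM of WT, and Adcy3 measured 56.0, 55.3 and 55.1 CPM, all above the 43.0 to 49.9 CPM of WT. Mchr1 measured 21.8, 24.1 and 19.7 CPM in mutants, the lowest of them just above the highest WT value of 19.0 CPM. Htr6, with 5.80, 8.96 and 7.17 CPM, overlapped with WT. Hence 3 of 4 genes had all mutant libraries above all WT libraries, where 12% of all genes did. None of the 4 passed the adjusted threshold in the frontal cortex (0 of 4, against 1.74% of all genes; 3 had an unadjusted p under 0.05, as had 15.3% of all genes). Sstr3 came nearest, with a log2 fold change of 0.31 (standard error 0.07, adjusted p = 0.0612, edgeR), followed by Adcy3 with 0.23 (standard error 0.06, adjusted p = 0.14). Sstr3 passed with DESeq2 (adjusted p = 0.0144) and without a filter on low counts (adjusted p = 0.0329). Over all genes these fits called 690 and 544, against 306 in the main fit.

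In the hippocampus the mutant libraries measured 44.8, 51.6 and 42.1 CPM for Sstr3 and 43.5, 48.9 and 44.7 CPM for Adcy3, all above WT. Mchr1 measured 21.8, 28.5 and 17.8 CPM and Htr6 5.79, 8.60 and 6.64 CPM, with overlap. All mutants were above all WT libraries for 2 of 4 genes, against 10.6% of all genes, and 0 of 4 passed the adjusted threshold, against 0.0171% of all genes (3 had an unadjusted p under 0.05, as had 9.89% of all genes). The estimates were larger than in the cortex and so were their errors: the fold of Sstr3 was 1.36 (interval 1.15 to 1.60, adjusted p = 0.391, edgeR) and that of Mchr1 1.37 (interval 1.02 to 1.85, adjusted p = 0.484). The log2 estimate of Mchr1 went from 0.46 to 0.27 without Pcm1-/- replicate 2. Sstr3 passed there with DESeq2 (adjusted p = 0.0305) and in 1 fit of all 18 libraries (adjusted p = 0.0289). Over all genes these fits called 220 and 205, against 3 in the main fit. Within each genotype, replicate 2 was highest for Sstr3, Mchr1, Htr6 and Adcy3 in the hippocampus. These libraries had 3372 and 3233 counts on the Y chromosome, against at most 98 in the other hippocampus libraries. They also had the highest sums of pan-neuronal markers of their groups (5866 CPM in WT and 6618 CPM in mutants), and the lowest sums of oligodendrocyte markers (3936 and 2955 CPM), and the part of sex or of tissue make-up in these values was not tested.

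In the striatum Adcy3 measured 89.5, 80.5 and 92.0 CPM in mutants, all above the 60.0 to 77.4 CPM of WT, and Htr6 measured 11.1, 10.5 and 10.9 CPM, all above the 8.69 to 9.37 CPM of WT. Mchr1 measured 59.2, 58.5 and 56.1 CPM and overlapped with WT. Sstr3 was the one receptor whose mutant mean was below WT, at 1.68, 2.29 and 1.88 CPM, from 47 to 72 reads a library (fold 0.876, interval 0.657 to 1.17, adjusted p = 0.693, edgeR). Its log2 estimate of -0.19 went to -0.09 without Pcm1-/- replicate 1 and to -0.33 without Pcm1-/- replicate 2. All mutants exceeded all WT libraries for 2 of 4 genes, against 9.6% of all genes, and 0 of 4 passed, against 0.0285% of all genes (2 had an unadjusted p under 0.05, as had 13.5% of all genes). The fold of Adcy3 was 1.25 (interval 1.06 to 1.46, adjusted p = 0.244) and that of Htr6 1.20 (interval 1.04 to 1.40, adjusted p = 0.282). The lowest WT values of Adcy3, Mchr1 and Htr6 came from WT replicate 3, the library with the choroid plexus markers. It also had 3889 counts on the Y chromosome, against 67 and 90 in the other WT striatum libraries. Among mutants replicate 2, with 4393 such counts, was lowest for Adcy3 and Htr6 but not for Mchr1. Without WT replicate 3 the log2 fold change went from 0.32 to 0.21 for Adcy3, from 0.19 to 0.08 for Mchr1 and from 0.27 to 0.24 for Htr6. The part of sex or of tissue make-up in these values was not tested. Adcy3 was the 1 gene of the 4 with every mutant library above every WT library in each of the 3 regions, which 1.9% of all genes showed.

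Since the regions came from the same animals, the counts of each animal were summed and the 6 animals compared. Sstr3 then measured 23.1, 24.9 and 23.4 CPM in WT animals and 30.8, 32.3 and 29.5 CPM in mutants, and rose by 0.38 on the log2 scale (fold 1.30, interval 1.19 to 1.42, adjusted p = 0.0362, edgeR). It was the only 1 of 4 genes to pass, where 1.39% of all genes did (all 4 had an unadjusted p under 0.05, as had 17.2% of all genes). Adcy3 measured 53.0, 48.3 and 54.6 CPM in WT animals and 61.8, 62.2 and 62.7 CPM in mutants, a fold of 1.20 (interval 1.10 to 1.30) that did not pass (adjusted p = 0.0672). The values of Mchr1 were 28.2, 27.7 and 30.1 against 33.2, 37.4 and 30.3 CPM (adjusted p = 0.213), and those of Htr6 6.64, 6.91 and 6.73 against 7.38, 9.35 and 8.14 CPM (adjusted p = 0.201). The call of Sstr3 was lost when the animal of WT replicate 1 or 2 or of Pcm1-/- replicate 1, 2 or 3 was left out (adjusted p from 0.0735 to 0.211, log2 fold change from 0.34 to 0.41), and when the striatum was left out (log2 fold change 0.37, adjusted p = 0.138). It stayed without WT replicate 3 (adjusted p = 0.0484) and with DESeq2 (7.35e-06) and limma voom (0.00482). Adcy3 passed with the latter tools (adjusted p = 0.00244 and 0.012) and without WT replicate 3 (0.0494). Over all genes DESeq2 called 1198, limma voom 992 and the fit without WT replicate 3 398, against 243 in the main fit.

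Whether the genotype difference itself varied between regions was tested as an interaction over the 18 libraries. None of the 4 genes passed (0 of 4, against 0.0114% of all genes). Sstr3, with estimates of 0.31 in the frontal cortex, 0.44 in the hippocampus and -0.19 in the striatum, had the smallest p (unadjusted p = 0.00441, adjusted p = 0.517, edgeR), and the other 3 had an adjusted p of 1.

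**Figure D3:**
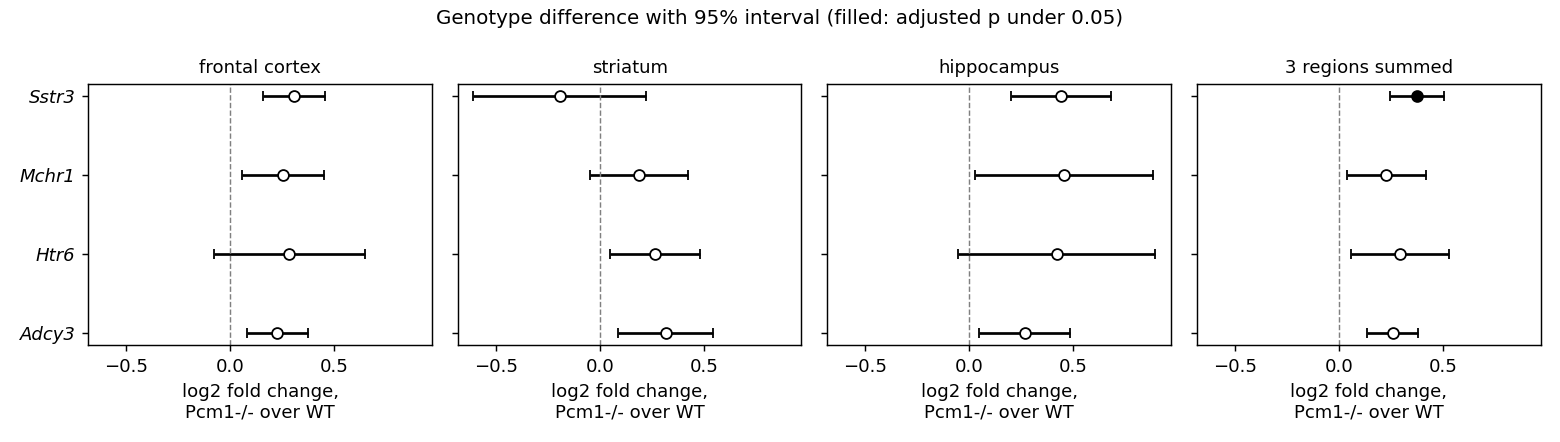
Log2 fold change of Pcm1-/- over WT with its 95% interval for each gene in each region and for the counts summed per animal, filled where the adjusted p was under 0.05. Estimates of Sstr3, Mchr1, Htr6 and Adcy3 lie right of 0 in every panel except Sstr3 in the striatum (-0.19), and only Sstr3 in the summed counts (0.38) is filled.

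Markers of other cell types were compared between genotypes in the same libraries. Markers of oligodendrocytes (4 of 4), microglia (4 of 4) and endothelium (3 of 3) had negative estimates in all 3 regions, with medians from -0.22 to -0.53 on the log2 scale, and 0 of them passed in any region. Astrocyte markers had medians of -0.04 over frontal cortex, -0.21 over striatum and -0.19 over hippocampus libraries, with 2 of 4 positive in the frontal cortex, and 0 of 4 passed in any region or in the summed counts. In the summed counts 1 of the 11 markers of oligodendrocytes, microglia and endothelium passed the threshold, Mag, a myelin gene, which fell by 0.46 (adjusted p = 0.0397, edgeR) and did not pass without any 1 of the 6 animals. Summed microglial markers were 253 to 336 CPM in WT and 216 to 247 CPM in mutant frontal cortex, and summed oligodendrocyte markers 1505 to 2026 and 1363 to 1440.5 CPM. The sum of the excitatory markers was higher in mutants in the regions where Sstr3 is abundant, with 2033 to 2105 CPM in WT and 2422 to 2554 CPM in mutant frontal cortex and 1665 to 2125 CPM in WT and 2152 to 2635 CPM in mutant hippocampus. Slc17a7, the vesicular glutamate transporter gene that dominates that sum, rose by 0.26 in the frontal cortex (adjusted p = 0.0396) and by 0.36 in the summed counts (adjusted p = 0.0366, edgeR). Its call held in only 1 of the 6 fits that left out a library, and in 1 of the 6 that left out an animal, and its change over the 3 regions was 0.01 with limma voom (adjusted p = 0.985). The other markers of the list did not pass: Slc17a6, another transporter gene of the family, was at 0.51 over frontal cortex and -1.49 over hippocampus libraries (adjusted p = 0.258 and 0.405), and Neurod6, a transcription factor gene, at -0.01 and 0.14 (0.977 and 0.807). In the striatum all 3 estimates were negative, with a median of -1.37, and 0 of 3 passed. The inhibitory markers there summed to 1526 to 1629 CPM in WT and 1663 to 1740 CPM in mutants. The markers of striatal neurons summed to 4764 to 5418 CPM in WT and 5439 to 5796 CPM in mutants. Estimates were positive for 3 of 3 and 5 of 5 of these genes, and 0 of either list passed there. The inhibitory sums overlapped between genotypes in the other regions. The sum of the 4 pan-neuronal markers overlapped between genotypes in the striatum and hippocampus and was 7068 to 8199 CPM in WT and 8407 to 8683 CPM in mutant frontal cortex. Of these 4, Syt1, a gene of synaptic vesicles, rose there by 0.29 (adjusted p = 0.0435, edgeR), and 0 passed in the other regions or in the summed counts. Their part in the differences of the 4 genes was not tested.

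The partners of the 4 genes were read from lists of ligands, receptors, enzymes and trafficking proteins. Among 17 other receptors that have been placed in cilia, 16 could be tested and 1 (Galr3) was not matched. In the frontal cortex, 3 rose and 0 fell: Npy5r, a neuropeptide Y receptor gene, by 0.81 (standard error 0.12, adjusted p = 0.0195), the dopamine receptor gene Drd1 by 0.68 (standard error 0.10, adjusted p = 0.0177) and the orphan receptor gene Gpr83 by 0.49 (standard error 0.10, adjusted p = 0.0486, edgeR). Of all genes tested 1.74% passed there, 247 of them higher and 59 lower in mutants. The median of the list was 0.32 against -0.01 over all genes tested. It includes Prlhr, which was at 0 in all WT frontal cortex libraries and had 0 to 2 counts in mutants, and without it the median was 0.31. Npy5r measured 4.73, 4.95 and 4.83 CPM in WT and 9.84, 8.09 and 7.59 CPM in mutants, Drd1 10.3, 11.4 and 13.1 against 17.9, 19.5 and 18.4 CPM, without overlap. In the striatum and hippocampus 0 of 16 passed, with medians of 0.38 and 0.22 and with 9 and 7 genes at an unadjusted p under 0.05, all of them higher in mutants (13.5% and 9.89% of all genes were under it in either direction). In the summed counts Npy5r (0.76), Drd5 (0.77), another dopamine receptor gene, and Drd1 (0.55) rose (adjusted p = 0.0203, 0.0317 and 0.0362). These receptors had larger estimates than Mchr1, Htr6 or Adcy3, and whether they differ from those was not tested. Of the 6 fits of the frontal cortex that left out 1 library, Drd1 passed in 2, Npy5r in 1 and Gpr83 in 1, and of the 6 fits that left out 1 animal Npy5r, Drd1 and Drd5 passed in 1 each, that without WT replicate 3. With lane as a covariate, Npy5r (0.82, adjusted p = 0.0757), Drd1 (0.58, 0.0719) and Gpr83 (0.56, 0.103) did not pass in the frontal cortex. With the striatum left out of the sums, 0 of the 9 listed and marker genes that had passed there did so, and calls over all genes went from 243 to 9. Their estimates differed little in that fit, with 0.79 for Npy5r, 0.82 for Drd5 and 0.68 for Drd1. Summed markers of striatal neurons, the cells with the most Drd1, were 143 to 167 CPM in WT and 189 to 207 CPM in mutant frontal cortex. Of these 5 markers 1 passed there, Penk, the proenkephalin gene, which rose by 0.95 (adjusted p = 0.00816, edgeR), while Drd2 (0.38), Rgs9 (0.08), Ppp1r1b (-0.02) and Adora2a (-0.04) did not pass, and their part in these differences was not tested.

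Both ligand genes of the somatostatin system and 3 of its 4 remaining receptor genes also rose in mutant frontal cortex. Of all genes tested 1.74% passed in that region, 247 higher and 59 lower in mutants. Sst, the somatostatin gene, measured 152, 152 and 127 CPM in WT and 207, 199 and 180 CPM in mutants and rose by 0.43 (adjusted p = 0.0426), and Cort, which encodes the related peptide cortistatin, rose by 1.44 (adjusted p = 0.0312, edgeR) from 2.24, 3.08 and 2.84 to 10.3, 6.30 and 5.52 CPM. Neither passed in the striatum (-0.01 for Sst and 0.03 for Cort, adjusted p = 0.964 and 0.992) or the hippocampus (0.58 and 0.62, 0.425 and 0.418), and in the summed counts Cort passed (1.04, adjusted p = 0.0427), though in 0 of the 6 fits that left out 1 animal, and Sst did not (0.33, 0.0913). Pmch, the gene of the ligand of MCHR1, was counted but had fewer than 10 reads in each library and was not tested. Of Sstr1, Sstr2, Sstr4 and Sstr5, 3 rose in the frontal cortex and 0 fell, Sstr2 by 0.93, Sstr4 by 0.71 and Sstr1 by 0.70 (adjusted p = 0.00372, 0.00545 and 0.00671), while Sstr5 did not pass (0.57, adjusted p = 0.494). Sstr2 measured 26.4, 25.6 and 31.3 CPM in WT and 51.8, 54.0 and 53.2 CPM in mutants. The same 3 genes rose in the summed counts, by 0.78, 0.81 and 0.62 (adjusted p = 0.0378, 0.0247 and 0.0377). Of the 6 fits that left out 1 animal, Sstr1 passed in 0 and Sstr2 and Sstr4 in 1 each. In the striatum and hippocampus 0 of these 4 passed. Sstr2 passed in the frontal cortex under all 13 alternatives and Sstr1 and Sstr4 in 5 of the 6 fits without 1 library, while Sst and Cort passed in 1 of these 6. With lane as a covariate, Sstr2 and Sstr4 passed and Sst, Cort and Sstr1 did not. Sstr3, the member of the family best known from cilia, had the smallest estimate of the 5 somatostatin receptor genes in the frontal cortex, and that order was not tested.

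Of the 9 other adenylyl cyclase genes, whose products act downstream of the receptors, 0 passed in any region or in the summed counts, and the medians were -0.02 over frontal cortex libraries, -0.22 over striatum and -0.01 over hippocampus libraries, with Adcy3 at 0.23, 0.32 and 0.27. Adcy9 had estimates of 0.20, 0.32 and 0.43, a little under Adcy3 in the frontal cortex, alike in the striatum and larger in the hippocampus. In the summed counts Adcy9 was at 0.33 against 0.26 for Adcy3. The smallest p values in the frontal cortex belonged to Adcy9 (log2 fold change 0.20, adjusted p = 0.168), Adcy8 (0.24, 0.277) and Adcy2 (0.14, 0.29). Of 11 genes of G protein subunits and cyclic AMP targets, 0 passed in any region, with a median of 0.03 in the frontal cortex and Gnai2 (-0.16, adjusted p = 0.269), Gnao1 (-0.12, 0.272) and Gnai1 (0.14, 0.279), the alpha subunits of inhibitory G proteins, at its head by p. Of 20 genes that carry proteins into, within or out of the ciliary membrane, 0 passed in any region. Their estimates in the frontal cortex were negative in 16 and positive in 4, between -0.24 and 0.03 with a median of -0.05. Bbs2 (-0.22, adjusted p = 0.194) and Bbs9 (-0.17, 0.446), subunits of the BBSome, and Tulp3 (-0.24, 0.349), an adaptor that brings receptors into cilia, had the smallest p values there. Of all 17545 genes tested, 9050 had a negative estimate in the frontal cortex. The list had 13 negative and 7 positive estimates in the striatum (median -0.02) and 12 and 8 in the hippocampus (median -0.04).

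**Figure D4:**
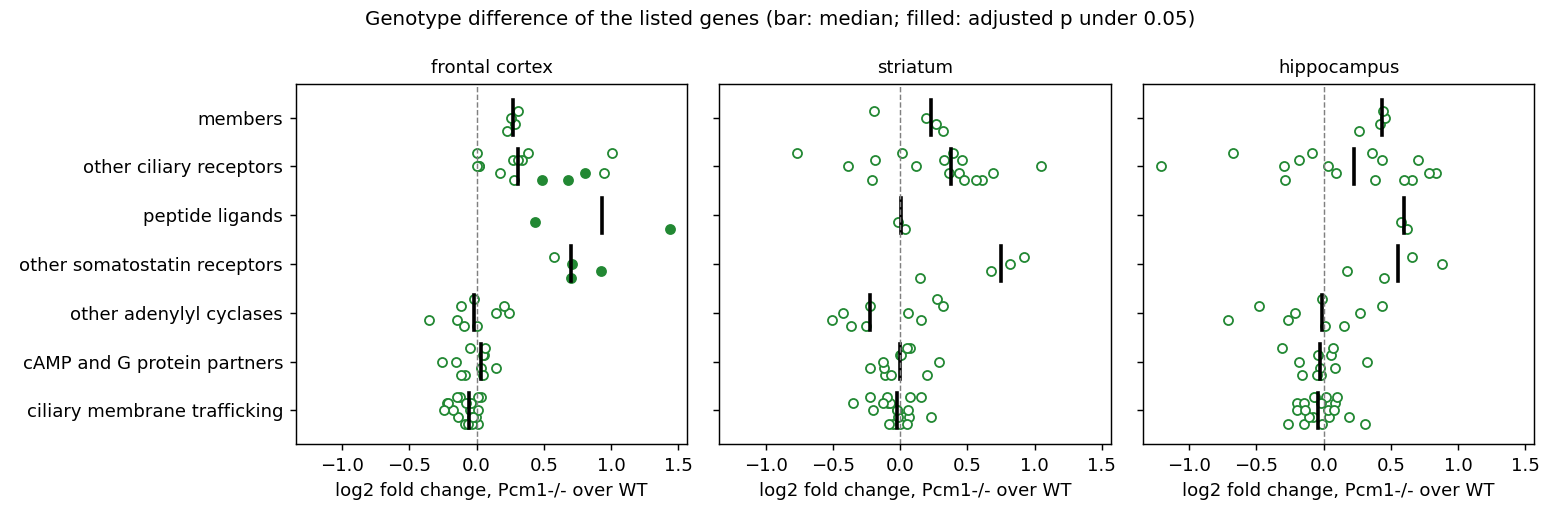
Log2 fold change of Pcm1-/- over WT for the 4 genes (row members) and each listed gene in each region, with 1 point a gene, a bar at the median of each list and filled points for an adjusted p under 0.05 (Prlhr is left out of the frontal cortex panel because WT was at 0). Filled points stand only in the frontal cortex and only among the ciliary receptors, the peptide ligands and the other somatostatin receptors, with medians of 0.31, 0.93 and 0.70.

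The genes whose log2 CPM followed each of the 4 most closely over the 18 libraries were taken from 13016 genes (average log2 CPM 1 or more). The libraries fall into regions, so these correlations mostly describe the order of regions. Values with the means of the 6 groups removed are given beside them, and both are descriptions without a test. Sstr3 was followed by Olfm1, the gene of a secreted neuronal glycoprotein (Pearson's r = 0.998, and 0.83 with group means removed), Dlgap1 (0.996 and 0.439) and Kcnj3 (0.996 and 0.456), the last one a potassium channel gene opened by inhibitory G proteins. Mchr1 was followed by the potassium channel gene Kcnk2 (0.989 and 0.823) and by Bag5 (0.982 and 0.639). Htr6 was followed by Clptm1 (0.914 and 0.679), the cannabinoid receptor gene Cnr1 (0.912 and 0.497) and Pabpc5 (0.91 and 0.638), and Adcy3 by Ap1s1 (0.975 and 0.861), Neto2 (0.974 and 0.675) and Stim1 (0.972 and 0.398).

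Among the 4 genes, with group means removed, Mchr1 and Htr6 (0.625), Mchr1 and Sstr3 (0.566), Mchr1 and Adcy3 (0.555), Htr6 and Adcy3 (0.544) and Sstr3 and Htr6 (0.458) varied together over the 18 libraries, and Sstr3 and Adcy3 did not (-0.0569). All of these pairs share libraries and their depth.

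**Figure D5:**
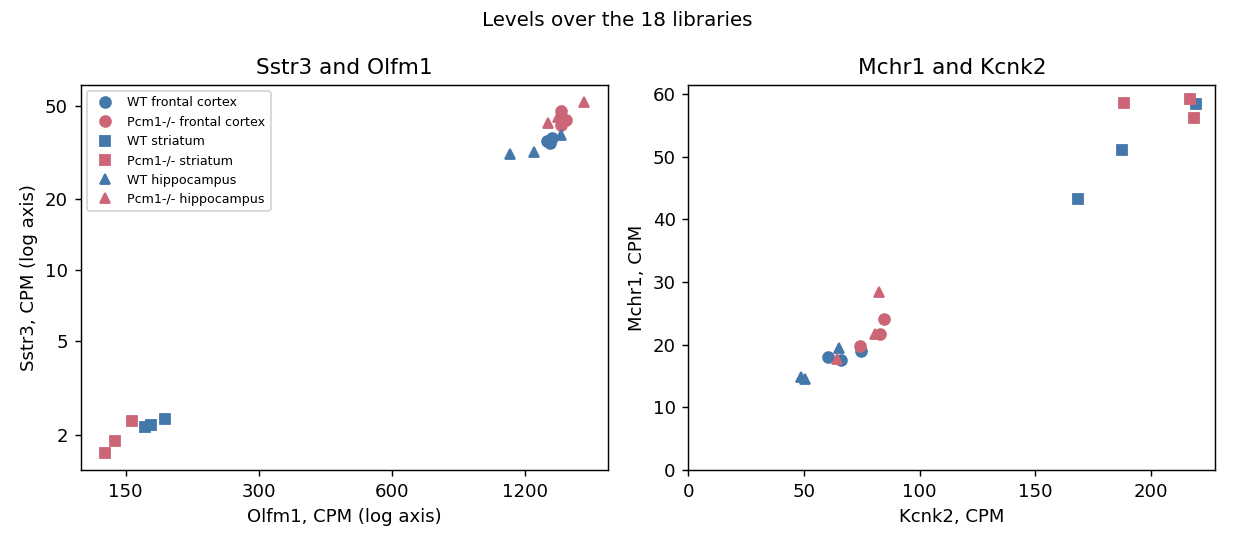
CPM in the 18 libraries of Sstr3 against Olfm1 on log axes, and of Mchr1 against Kcnk2 on linear axes, with WT in blue, Pcm1-/- in red and a symbol for each region. The 6 striatum libraries form a cluster of their own in both plots, the lower one for Sstr3 and the upper one for Mchr1, where they lie between 43.2 and 59.2 CPM and the other libraries at or under 28.5 CPM.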

How the data were processed

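RNA from the frontal cortex, striatum and hippocampus of WT and Pcm1-/- mice was sequenced from stranded mRNA libraries. The authors trimmed reads with Trim Galore and cutadapt (20 nt or longer kept), mapped them to GRCm38 with the Ensembl release 73 transcriptome using STAR, kept uniquely mapped reads and counted them per gene with HTSeq. Tool versions and the strand setting are not given in the sources used here. The deposited values are raw counts per gene, and genes took 86.8% to 89.2% of the reads in a file. The rows for reads on no gene or on several genes were left out. Symbols (36639 of 38561 identifiers matched), positions and exon lengths came from GENCODE M21 (GRCm38), and promoter windows from RefSeq (GRCm38).

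Genotypes were compared within regions, and regions within genotypes with the animal (read from the file name) as a block. The test was edgeR 4.0.16 in R 4.3.3 (TMM factors, quasi-likelihood test, Benjamini-Hochberg adjustment, 17545 genes, threshold 0.05), and the 95% intervals came from the same fit. Log2 CPM used a prior count of 2. Libraries of 1 group differed by more than counting noise (chi-square per degree of freedom from 7.02 to 59.0). Alternatives were DESeq2 1.42.0, its size factors, other filters, limma 3.58.1 (voom), 1 fit of all libraries, lane, the replicate number as a block, and leaving out each library or animal. The test steps were checked on simulated data.

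The genes and lists were chosen with earlier results of these data known. Named were the 4 genes, Pcm1, list members past the threshold or otherwise the 3 with the smallest p in the frontal cortex, and, of the 3 genes most correlated with each of the 4, those given. Some genes are not reported here. The marker genes given with values and Galr3, Pmch, Prlhr and Cenpo were named after their values were seen.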

Additional observations from a re-analysis of the deposited data

How the results depend on the processing

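Of the 4 genes, 1 (Sstr3) passed between genotypes in the frontal cortex with DESeq2, without a filter on low counts and with the replicate block (adjusted p = 0.0338), and 1 (Sstr3) in the hippocampus with DESeq2 and in 1 fit of all 18 libraries, where 0 passed in the edgeR fit. In the summed counts 2 passed with DESeq2 and with limma voom, and 0 with the striatum left out, a setting added after seeing the data, as were the alternatives for listed genes. The same settings also changed the count over all genes. In the frontal cortex it was 690 with DESeq2, 544 without a filter and 665 with the replicate block, against 306. In the hippocampus it was 220 with DESeq2 and 205 in 1 fit of all 18 libraries, against 3. The summed counts gave 1198 with DESeq2, 992 with limma voom and 9 without the striatum, against 243. Leaving out 1 animal in turn gave 0 to 2 genes in the summed counts, 0 to 1 between WT hippocampus and frontal cortex (and 0 with no animal block) and 0 to 1 between mutant hippocampus and frontal cortex. Among these alternatives the sign turned only for Mchr1 between mutant hippocampus and frontal cortex, where the estimate of 0.03 became -0.082 without Pcm1-/- replicate 2 (range without 1 animal -0.082 to 0.12). The cause was not tested.

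Over all genes, the frontal cortex count of 306 ran from 11 (without Pcm1-/- replicate 1) to 825 (without WT replicate 3), the summed count of 243 from 4 to 1198, the striatum count of 5 from 2 to 488, the hippocampus count of 3 from 1 to 220 and the interaction count of 2 from 0 to 94. Counts between regions were lowest when 1 animal was left out. For striatum against frontal cortex 8446 fell to 5919 in WT and 9887 to 7350 in mutants. For hippocampus against frontal cortex 6492 fell to 3388 in WT and 7698 to 4509 in mutants. For striatum against hippocampus 6160 fell to 3740 in WT and 8276 to 5631 in mutants. Deviations of WT and Pcm1-/- libraries with the same replicate number correlated at 0.0428, 0.26 and 0.197 in frontal cortex. Those with different numbers gave -0.223 to 0.0395 there. Striatum libraries gave 0.178, -0.156 and -0.269 against -0.348 to 0.388. Hippocampus libraries gave 0.0955, 0.507 and 0.194 against -0.387 to 0.232. In frontal cortex and hippocampus the libraries with 3064 or more counts on the Y chromosome were replicate 2 of both genotypes. In the striatum they were WT replicate 3 and Pcm1-/- replicate 2. Whether the numbers mark a pairing is not stated, and the part of sex in these correlations was not tested. The replicate block gave 665 genes over frontal cortex libraries, 3 over striatum and 9 over hippocampus libraries. No fit with lane as a covariate was possible in the striatum. Sstr3 had 47 to 72 reads a library there, the fewest of the 4 genes in any region.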
